A study of Mus musculus with 18 samples.

Results

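The 10 genes described here are Yap1, Wwtr1, Tead1, Tead2, Tead3, Tead4, Lats1, Lats2, Amotl2 and Ankrd1. They encode the effectors of the Hippo pathway, the DNA-binding proteins those effectors work through, the kinases that restrain them and well-known target genes. They were taken by symbol from a table of 27179 genes. All 10 were found there and all 10 were among the 14353 genes tested. RNA had been sequenced from 18 cultures of mesenchymal stem cells (MSCs), stromal cells cultured from the bone marrow of C57BL6 mice. Young MSCs came from mice of 6 weeks and old MSCs from mice of 18 to 24 months, with 6 cultures of each that received no treatment. The other 6 cultures were rejuvenated old MSCs, which were old MSCs grown for 7 days in a well shared with young MSCs behind a membrane with 0.4 µm pores. None of the 18 cultures held old MSCs that shared a well with other old MSCs. The presence of other cells and their age therefore cannot be told apart. All groups were sampled after 7 days and were expanded primary cultures. No transgene or deletion is named for them in the sources used here. The sample titles call the 6 cultures of a group biological replicates. How many animals stood behind these 6 is not given in the sources used here. The p-values therefore measure the spread between these cultures, which may still be technical.

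The Hippo pathway is a kinase cascade that limits the activity of 2 related transcriptional coactivators, YAP (gene Yap1) and TAZ (gene Wwtr1). The kinases LATS1 and LATS2 phosphorylate both proteins, which keeps them in the cytoplasm or marks them for breakdown. Unphosphorylated YAP and TAZ enter the nucleus, bind a TEAD protein on DNA and switch on target genes, among them Ankrd1, Amotl2, Lats2, Cyr61 (also called Ccn1) and Ctgf (also called Ccn2). In marrow stromal cells the pathway is known for its response to the stiffness of the surroundings and for its part in the choice between bone and fat. RNA levels do not measure the phosphorylation or the place of YAP and TAZ in the cell.

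TEAD proteins bind DNA at a short sequence often written GGAATG, whose reverse complement is CATTCC. The promoters of 4 target genes, Ankrd1, Amotl2, Lats2 and Cyr61, are shown because the values below turn on them. Each runs from 250 bases before to 50 bases after a start site, 5′ to 3′ on the gene's own strand, from RefSeq on GRCm38.p6 (mm10). Capitals mark GGAATG or CATTCC. The Ankrd1 window is chr19:36119795-36120094 on the minus strand, that of Amotl2 is chr9:102717554-102717853 on the plus strand, that of Lats2 is chr14:57746074-57746373 on the minus strand (the first of 2 listed starts), and that of Cyr61 is chr3:145649936-145650235 on the minus strand.
Ankrd1: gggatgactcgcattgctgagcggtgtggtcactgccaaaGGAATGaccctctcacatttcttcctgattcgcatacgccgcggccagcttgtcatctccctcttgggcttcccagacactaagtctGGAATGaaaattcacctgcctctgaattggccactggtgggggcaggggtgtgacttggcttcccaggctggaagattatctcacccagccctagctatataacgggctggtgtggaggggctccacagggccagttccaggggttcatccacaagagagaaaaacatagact
Amotl2: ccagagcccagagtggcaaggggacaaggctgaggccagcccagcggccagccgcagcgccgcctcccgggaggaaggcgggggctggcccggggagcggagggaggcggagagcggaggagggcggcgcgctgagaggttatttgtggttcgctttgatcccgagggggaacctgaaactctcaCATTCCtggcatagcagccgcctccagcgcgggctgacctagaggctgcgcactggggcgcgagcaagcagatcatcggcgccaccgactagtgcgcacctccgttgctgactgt
Lats2: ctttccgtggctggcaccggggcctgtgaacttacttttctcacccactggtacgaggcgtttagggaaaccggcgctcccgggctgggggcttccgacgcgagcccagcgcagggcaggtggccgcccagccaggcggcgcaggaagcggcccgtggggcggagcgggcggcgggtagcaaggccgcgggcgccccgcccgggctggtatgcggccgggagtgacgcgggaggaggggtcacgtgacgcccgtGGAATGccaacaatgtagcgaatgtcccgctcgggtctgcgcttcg
Cyr61: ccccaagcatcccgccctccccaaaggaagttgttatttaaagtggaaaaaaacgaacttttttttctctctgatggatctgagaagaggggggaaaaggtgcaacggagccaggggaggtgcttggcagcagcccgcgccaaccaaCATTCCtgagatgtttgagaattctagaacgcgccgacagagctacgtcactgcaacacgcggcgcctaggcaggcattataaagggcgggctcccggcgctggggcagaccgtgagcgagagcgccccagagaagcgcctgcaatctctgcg

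Ankrd1 held the letters 2 times, with first bases at positions -210 and -123 counted from the start site. Amotl2 held them once, as the reverse complement at position -65, Cyr61 once as the reverse complement at -103, and Lats2 once at position 5 after the start. The other Lats2 window, not shown, did not hold them. Of the 10 genes, 8 had at least 1 window in the RefSeq table, and Tead1 and Tead4 had none, nor did Ctgf. GGAATG on either strand was found for 6 of the 8 genes (Yap1, Wwtr1, Tead3, Lats2, Amotl2 and Ankrd1) and in 8 of their 12 windows, some of which overlap. Over all 32851 windows of the table, 14.7% held it at least once and 1.36% at least 2 times. These shares are per window, so they stand beside the 8 of 12 windows and not the 6 of 8 genes. The shorter form GGAAT, which also lies within GGAATG, was in 38.7% of all windows, and in those of the 8 genes it was absent only from the Lats1 window and 1 of the 3 Tead3 windows. A match describes these letters and shows no binding.

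Several properties of the libraries bear on every value below. Reads on genes ran from 22936251 to 29559194 per library. Reads from the Y-linked genes Ddx3y, Eif2s3y, Kdm5d and Uty summed to between 0 and 5.15 normalized counts in the young libraries, and to between 4898 and 5979.9 in the old and rejuvenated old ones, although the methods name male mice for both ages. Of the surface markers used to define the cells, Ly6a (Sca-1) and Cd44 were present in all 18 libraries. The study reported CD34 absent at both ages by flow cytometry of the MSC preparations, which measures surface protein and not RNA. Cd34 RNA had a mean of 7006 ± 156 normalized counts in young libraries (SD, n = 6) and lay between 19.4 and 28.0 in old ones. In rejuvenated old libraries it lay between 24.2 and 41.9 except in replicate 1, where it was 402. The summed level of 14 macrophage markers was 932 to 1049 in the young, 16555 to 20611 in the old and 16608 to 20192 in the rejuvenated old libraries. All 14 were lower in young than in old MSCs, beside 44.1% of all genes tested, and Ptprc and Adgre1 had 0 reads in all young libraries. Ptprc encodes CD45, whose surface protein was also reported absent by flow cytometry. Its normalized count ran from 162 to 208 in old and from 122 to 171 in rejuvenated old libraries. Summed muscle markers were 26.8 to 44.8 in young and 2877 to 3092 in old libraries, with Myod1 at 0 reads in all 3 groups. Only 2 of the 8 muscle markers reached the mean of 10 needed for testing, so these 2 carry most of the sum. Summed endothelial markers, led by Cd34 in the young libraries and by Vwf on average in the other groups, were 7034 to 7371 in the young, 146 to 193 in the old and 186 to 557 in the rejuvenated old libraries, and 6 epithelial markers summed to at most 22.3 in any library. The 12 stromal markers summed to 364391 to 389203 in the young, 527609 to 548552 in the old and 528343 to 571196 in the rejuvenated old libraries. Of these 12, 5 were higher and 7 lower in young than in old MSCs, beside 41.6% and 44.1% of all genes tested. With co-culture 4 were higher and 5 lower, beside 21.0% and 20.6%. Of 10 proliferation genes, 4 rose with co-culture, beside 21.0% of all genes tested. In young against old MSCs 2 were higher and 6 lower, beside 41.6% and 44.1% of all genes tested. The median log2 fold change of young against old MSCs on a chromosome was set against that over all autosomal genes. It was shifted by 0.64 on chromosome 7, which carries Tead1 and Tead2, and by 0.25 on chromosome 17, which carries Tead3. It was shifted by 0.23 on chromosome 9 (Yap1 and Amotl2), by 0.22 on chromosome 14 (Lats2) and by -0.16 on chromosome 10 (Lats1). It was shifted by 0.11 on chromosome 6 (Tead4), by 0.07 on chromosome 3 (Wwtr1) and by -0.01 on chromosome 19 (Ankrd1). Among chromosomes of listed genes named below, it was shifted by -0.72 on chromosome 16 (Vgll3), by -0.66 on chromosome 1 (Ptpn14, Tgfb2 and Nuak2) and by -0.43 on chromosome 12 (Sav1). The part of these properties in the results was not tested, and young against old MSCs cannot be told apart from whatever else set the young libraries apart. For the young against old comparison of the 10 genes, and for several of the listed genes, the log2 difference after subtraction of the chromosome median is given too. There each library's log2 values were reduced by its own median log2 value over the tested genes of that chromosome. The amount subtracted differs from the shifts in median log2 fold change given above.

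The first comparison asks how exposure to young MSCs altered the pathway's transcripts in old MSCs. After co-culture 4 of the 10 genes were higher and none was lower in limma at an adjusted p under 0.05, without a lower limit on the fold change. Amotl2 rose 1.55-fold, Tead4 1.25-fold, Lats2 1.18-fold and Tead3 1.10-fold, and the other 6 were not called. None of the 10 was lower at an unadjusted p under 0.05 either, and DESeq2 and edgeR also called 4 higher and 0 lower. Among all genes tested, 41.6% were called in this comparison, 21.0% higher and 20.6% lower. Only for Amotl2 did the 6 rejuvenated old libraries not overlap the 6 old ones, against 22.0% of all genes. The median log2 fold change of the 10 genes was 0.06, beside 0.01 over all genes. Their median absolute log2 fold change was 0.11, beside 0.15 over all genes.

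The second comparison asks how the donor's age went with these transcripts. All 10 differed between young and old MSCs, 7 higher and 3 lower in young, or 6 higher and 4 lower after subtraction of the chromosome medians. The background is wide here, since 85.7% of all genes were called, 41.6% higher and 44.1% lower in young. Young and old libraries did not overlap for 8 of the 10 genes and for 73.9% of all genes. The median log2 fold change of the 10 was 0.32, beside -0.02 over all genes, and their median absolute log2 fold change was 0.35, beside 0.60 over all genes. Both comparisons use the same old libraries and are therefore not independent of each other. In young against rejuvenated old MSCs, 8 of the 10 were called, 5 higher and 3 lower in young, beside 85.6% of all genes, and Tead3 and Amotl2 were not called. The young and rejuvenated old libraries did not overlap for 7 of the 10, beside 70.5% of all genes.

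**Figure D1:**
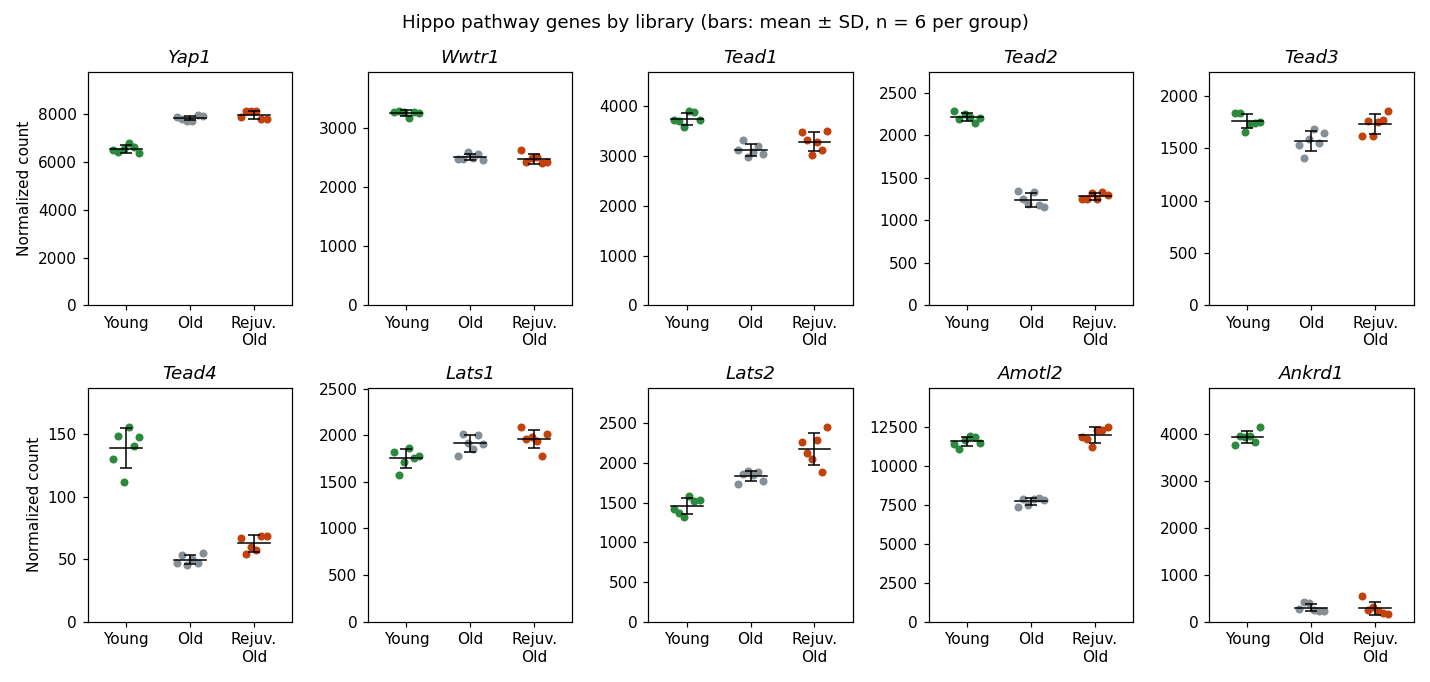
Normalized counts of the 10 genes in each of the 18 libraries, with 6 points per group for young, old and rejuvenated old MSCs. Bars show the mean ± SD and each vertical axis starts at 0. The rejuvenated old libraries of Amotl2, at 11181 to 12484, sit beside the young ones at 11098 to 11933, and those of Ankrd1, at 167 to 542, sit beside the old ones at 233 to 418.

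Yap1 (chr9:7931999-8004638) encodes YAP. Its normalized count, the reads of a gene divided by a size factor for the library, ran from 6381 through a median of 6532 to 6812 in young, from 7734 through 7832 to 7964 in old and from 7796 through 7998 to 8144 in rejuvenated old MSCs. All 6 young libraries lay below the other 12, and the old and rejuvenated old libraries overlapped. Yap1 was 1.20-fold higher in old than in young MSCs (young minus old -0.26 on the log2 scale, SE 0.02, adjusted p = 7.5e-10). Between rejuvenated old and old MSCs the log2 difference was 0.03 (95% confidence interval -0.02 to 0.08, adjusted p = 0.42).

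Wwtr1 (chr3:57455644-57575910) encodes TAZ and had the opposite order. Its normalized count ran from 3165 through 3271 to 3293 in young, from 2462 through 2486 to 2589.7 in old and from 2406 through 2463 to 2623 in rejuvenated old MSCs. The young libraries lay above the other 12 without overlap. Wwtr1 was 1.30-fold higher in young than in old MSCs (log2 difference 0.38, SE 0.03, adjusted p = 6.2e-12). Rejuvenated old and old MSCs differed by -0.02 on the log2 scale (95% confidence interval -0.07 to 0.04, adjusted p = 0.65). Subtraction of the chromosome medians left Yap1 lower and Wwtr1 higher in young MSCs, with log2 differences of -0.40 and 0.47.

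The 2 coactivator genes can be set against each other within a library once divided by exon length. This ratio was chosen after the values were seen and is given without a test. Yap1 per kilobase was 2.23 to 2.47 times Wwtr1 per kilobase in young libraries, 3.42 to 3.69 times in old and 3.44 to 3.84 times in rejuvenated old ones. Yap1 was the more abundant of the pair in all 18 libraries, and the excess was smaller in every young library than in any other.

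**Figure D2:**
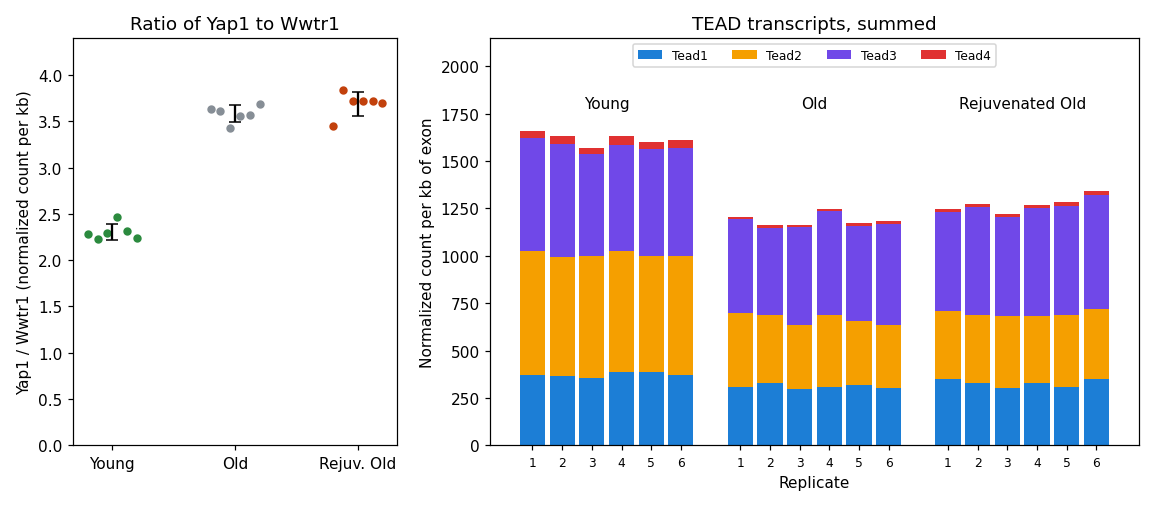
Left, the ratio of Yap1 to Wwtr1 in normalized counts per kilobase of exon, with 1 point per library and bars for the mean ± SD of 6 libraries. Right, stacked bars of Tead1 to Tead4 in normalized counts per kilobase for each library, where young libraries reach 1568 to 1657, old ones 1162 to 1249 and rejuvenated old ones 1222 to 1340. The bars use the deposited normalization, and the excess of the young libraries shrinks to 1218 against 1189 on average after subtraction of the chromosome medians.

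The 4 TEAD genes encode the DNA-binding partners of YAP and TAZ, and all 4 were higher in young than in old MSCs before any chromosome correction. Tead2 (chr7:45215792-45233468) ran from 2144 through 2214 to 2291 normalized counts in young, from 1160.2 through 1224 to 1351 in old and from 1247 through 1275 to 1329.9 in rejuvenated old MSCs. The young libraries stood clear of the others, which overlapped. Tead2 was 1.78-fold higher in young than in old MSCs (log2 difference 0.83, SE 0.04, adjusted p = 1.6e-15). After subtraction of the chromosome 7 median the difference was 0.34 (adjusted p = 7.9e-09). Rejuvenated old and old MSCs differed by 0.05 (95% confidence interval -0.03 to 0.13, adjusted p = 0.35).

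Tead1 (chr7:112679356-112906784) ran from 3583 through 3717 to 3909.5 normalized counts in young, from 2979 through 3095 to 3328 in old and from 3025 through 3304 to 3498 in rejuvenated old MSCs. The young libraries again did not overlap the others. The log2 difference of young minus old was 0.27 (SE 0.04, adjusted p = 7.5e-07) as deposited and -0.23 (adjusted p = 6.9e-06) after subtraction of the chromosome 7 median, so that its direction rests on the scaling. Rejuvenated old and old MSCs differed by 0.07 (95% confidence interval -0.0032 to 0.15, adjusted p = 0.12). Without rejuvenated old replicate 3 this difference was 0.10 and was called (adjusted p = 0.036, range over all alternatives 0.036 to 0.84).

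Tead3 (chr17:28331671-28350805) ran from 1658 through 1744 to 1836 normalized counts in young, from 1410.0 through 1567 to 1687 in old and from 1615 through 1755 to 1857 in rejuvenated old MSCs. The 3 groups overlapped throughout. Tead3 was 1.10-fold higher in rejuvenated old than in old MSCs (log2 difference 0.14, SE 0.04, adjusted p = 0.011), and subtraction of the chromosome 17 median ended this call (0.08, adjusted p = 0.12, range over all alternatives 0.0053 to 0.12). Young minus old was 0.17 (SE 0.04, adjusted p = 0.0011) as deposited and -0.12 (adjusted p = 0.013) after that subtraction, which reversed it.

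Tead4 (chr6:128227143-128300813) was the scarcest of the 10 genes and the TEAD gene with the largest log2 fold change in both comparisons. Its normalized count ran from 112 through 144 to 156 in young, from 45.2 through 48.7 to 54.8 in old and from 53.8 through 63.4 to 68.9 in rejuvenated old MSCs. These values rest on 100 to 154 reads per young library, 42 to 57 per old library and 57 to 74 per rejuvenated old library. Young libraries lay above all others, and 1 rejuvenated old library lay within the old range. Tead4 was 1.25-fold higher in rejuvenated old than in old MSCs (log2 difference 0.33, SE 0.10, adjusted p = 0.014) and 2.76-fold higher in young than in old MSCs (1.47, SE 0.10, adjusted p = 5.0e-12). Both calls were kept after subtraction of the chromosome 6 median, at 0.29 and 1.28.

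Per kilobase of exon, the summed TEAD level of young MSCs was 1616 ± 30.6 normalized counts, that of old MSCs 1189 ± 33.4 and that of rejuvenated old MSCs 1273 ± 39.5 (SD, n = 6). Tead2 made up 39.2% ± 0.97 of the sum in young MSCs, 29.9% ± 1.5 in old MSCs and 28.9% ± 1.3 in rejuvenated old MSCs. Tead3 made up 35.3% ± 0.83, 42.8% ± 2.1 and 44.1% ± 1.3 in the same order. On the deposited scale Tead2 led in young MSCs on average and Tead3 in both old groups. This order and the higher young sum rest on the scaling. When the chromosome-centred differences were applied to the old means, a calculation chosen after the data were seen, Tead2 came to 451 and Tead3 to 468 in young MSCs, which reversed their order, and the sum came to 1218 in young and 1221 in rejuvenated old MSCs against 1189 in old MSCs. Tead4 stayed at or below 2.67% of the sum in every library.

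Lats1 (chr10:7681200-7716461) and Lats2 encode the kinases that phosphorylate YAP and TAZ. Lats1 ran from 1569.8 through 1770.5 to 1867 normalized counts in young, from 1777 through 1910.4 to 2019 in old and from 1783 through 1972 to 2089 in rejuvenated old MSCs. Its 3 groups overlapped. Young minus old was -0.13 on the log2 scale (SE 0.04, adjusted p = 0.0094), and this turned to 0.18 (adjusted p = 0.00032) after subtraction of the chromosome 10 median. Scaling to the same total also ended the call (-0.05, adjusted p = 0.28). Rejuvenated old minus old was 0.04 (95% confidence interval -0.05 to 0.13, adjusted p = 0.55).

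Lats2 (chr14:57689662-57746212) is both a kinase of the pathway and a target of YAP and TAZ, whose promoter is printed above. It ran from 1313 through 1472 to 1585 normalized counts in young, from 1739.8 through 1859.6 to 1901 in old and from 1886 through 2196 to 2454 in rejuvenated old MSCs. Young libraries lay below all others, and only the lowest rejuvenated old library fell within the old range. Lats2 was 1.18-fold higher in rejuvenated old than in old MSCs (log2 difference 0.24, SE 0.05, adjusted p = 0.00097) and 1.26-fold higher in old than in young MSCs (young minus old -0.33, SE 0.05, adjusted p = 5.6e-06). It therefore lay farther from the young level after co-culture, with rejuvenated old MSCs 1.49-fold above young ones (adjusted p = 1.0e-09). Subtraction of the chromosome 14 median left log2 differences of 0.24 with co-culture and -0.43 for young minus old (adjusted p = 4.8e-08). In GENCODE M21, Lats2 shares 2955 exonic bases with the protein-coding gene model Gm49361 on the same strand, so its count depends on how such reads were assigned, which is not given in the sources used here.

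Amotl2 (chr9:102717091-102733418) encodes an angiomotin, a junctional protein that binds YAP and restrains it, and is itself a target gene. Its normalized count ran from 11098 through 11547 to 11933 in young, from 7337 through 7821 to 7938 in old and from 11181 through 12067 to 12484 in rejuvenated old MSCs. All 6 old libraries lay far below the other 12, and the young and rejuvenated old libraries overlapped. Amotl2 was 1.55-fold higher in rejuvenated old than in old MSCs (log2 difference 0.63, SE 0.03, adjusted p = 3.6e-13) and 1.50-fold higher in young than in old MSCs (0.59, SE 0.03, adjusted p = 2.8e-14). Young minus rejuvenated old was -0.05 (95% confidence interval -0.11 to 0.02, adjusted p = 0.14). This last difference was called at -0.21 (adjusted p = 7.6e-06) after subtraction of the chromosome 9 median and at -0.07 (adjusted p = 0.040) without rejuvenated old replicate 3, and its adjusted p ranged up to 0.88 over the alternatives. Young minus old was 0.45 (adjusted p = 3.0e-11) after that subtraction. The rise with co-culture was 0.61 to 0.65 under every alternative.

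Ankrd1 (chr19:36111965-36119844) encodes a stress-responsive ankyrin repeat protein first known from heart muscle and is a widely used readout of YAP activity. It ran from 3766 through 3944 to 4149.7 normalized counts in young, from 233 through 262 to 418 in old and from 167 through 231 to 542 in rejuvenated old MSCs. The young libraries lay far above the other 12, which overlapped. Ankrd1 was 13.4-fold higher in young than in old MSCs (log2 difference 3.75, SE 0.20, adjusted p = 4.7e-14), and the difference was 3.82 after subtraction of the chromosome 19 median. Rejuvenated old minus old was -0.18 (95% confidence interval -0.61 to 0.24, adjusted p = 0.50). Rejuvenated old replicate 1, the library with Cd34 at 402, had the highest Ankrd1 count of its group at 542, and the other 5 lay between 167 and 322. Without it the difference was -0.40 and was called (adjusted p = 0.038, range over all alternatives 0.038 to 0.84), which raises the genes called in this comparison from 4 to 5.

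**Figure D3:**
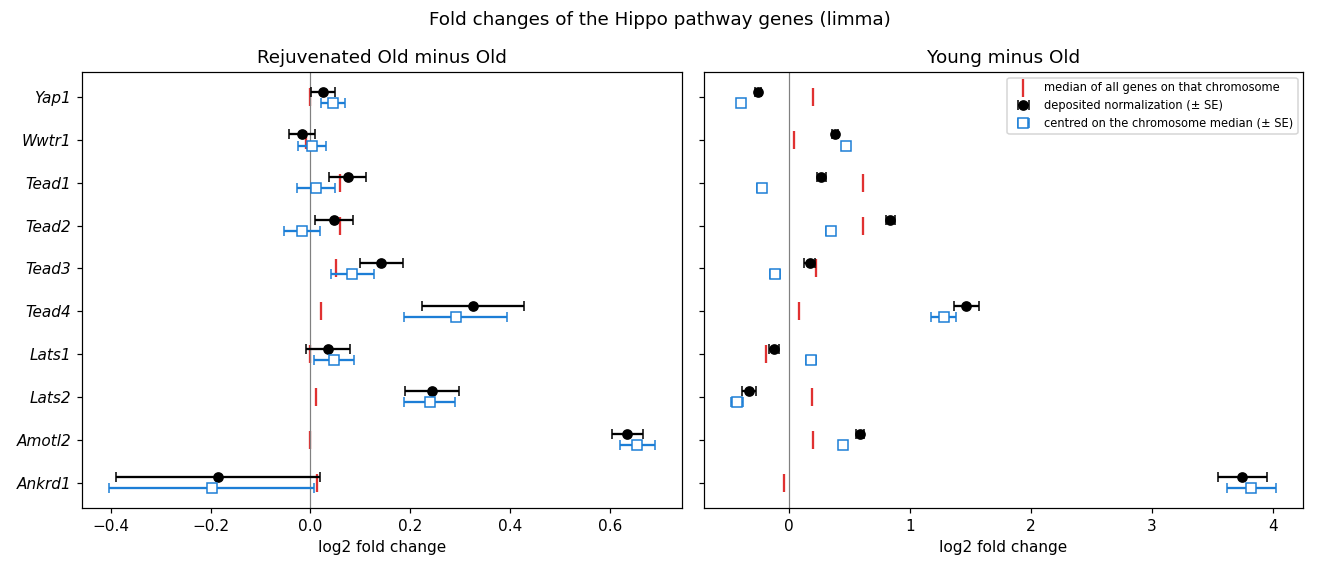
Log2 fold changes of the 10 genes for rejuvenated old minus old (left) and young minus old (right), with horizontal bars for the SE. Filled circles use the deposited normalization, and open squares follow subtraction of each library's chromosome median. Red ticks mark the median log2 fold change of the tested genes on that chromosome, which is not the amount subtracted. For young minus old, Tead1, Tead3 and Lats1 change sign between circle and square, and Ankrd1 at 3.75 stands apart.

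Ordered by normalized count per kilobase of exon, old MSCs had Yap1 highest at 1879 ± 23.1, then Amotl2 at 1727 ± 55.0, Wwtr1 at 525 ± 11.02, Tead3 at 509 ± 31.4, Tead2 at 356 ± 23.5, Tead1 at 311 ± 12.6, Lats2 at 284 ± 10.2, Lats1 at 262 ± 12.5, Ankrd1 at 149 ± 41.0 and Tead4 at 13.8 ± 1.0 (SD, n = 6). The ranges of Wwtr1 and Tead3 overlapped, as did those of Lats2 and Lats1, so the order within these pairs lies within the spread. In rejuvenated old MSCs Amotl2 came above Yap1, at 2683 ± 111 against 1913 ± 40.1. There the ranges overlapped between Tead3 and Wwtr1, Tead2 and Lats2, Lats2 and Tead1, and Lats1 and Ankrd1. In young MSCs Amotl2 led at 2591 ± 69.7 and Ankrd1 stood in the second place at 1947 ± 64.4, above Yap1 at 1569.8 ± 37.4. Among young libraries only Lats1 and Lats2 overlapped as neighbours. With the longest coding transcript as length, Tead3 came above Wwtr1 in old MSCs (565 against 534) and Lats2 came above Tead1 (354 against 313), Lats2 came above Lats1 in young MSCs (281 against 243) and Lats2 came above Tead2 in rejuvenated old MSCs (419.9 against 378), so these places depend on the length used. Tead4 was last in all 3 groups with either length.

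The pathway around these genes was described with 3 lists written from general knowledge. Of 43 kinases, adaptors and upstream regulators, 42 were in the table and all 42 were tested, Lats1, Lats2 and Amotl2 among them. Between rejuvenated old and old MSCs 10 of these were higher, 14 lower and 18 not called, with a median log2 fold change of -0.01. The 24 called are 57.1% of the list, beside 41.6% of all genes (21.0% higher and 20.6% lower). Wtip, an inhibitor of the LATS kinases, was higher by 0.32 (SE 0.05, adjusted p = 1.2e-05) and Sav1, the scaffold of the upstream kinases, by 0.30 (SE 0.03, adjusted p = 1.7e-07). Amot, which also binds YAP, fell by 0.61 (SE 0.06, adjusted p = 2.2e-08), from 1881 to 2178 normalized counts in old to between 1053 and 1499 in rejuvenated old libraries. Amot and Amotl2, both angiomotins, moved in opposite directions, and Amotl1, the other listed angiomotin, fell by 0.21 (SE 0.04, adjusted p = 9.5e-05). Stk24 rose by 0.24 and Map4k3 by 0.24, while Mob1a, the LATS partner, fell by 0.39. Tnik fell by 0.89 and the cadherin gene Dchs1 fell by 0.82, with at most 49.2 and 24.7 normalized counts in any library of these groups.

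Between young and old MSCs, 15 of the 42 were higher in young, 24 lower and 3 not called, with a median log2 fold change of -0.15. The 39 called are 92.9% of the list, beside 85.7% of all genes (41.6% higher and 44.1% lower). Dchs1 was higher in young by 4.68, Wwc1 by 2.53, Wtip by 1.22 and Map4k1 by 0.90. Sav1 fell by 2.20, from 6369 ± 223 normalized counts in old to 1381 ± 61.5 in young MSCs (SD, n = 6). Fat4, the receptor partner of Dchs1, fell by 2.68. Ptpn14, a phosphatase that binds YAP, fell by 2.67 and Tnik fell by 2.32. All of these kept their direction under every scaling tried. Their sizes moved with subtraction of the chromosome median, to 0.73 for Wtip, 0.41 for Map4k1, 4.19 for Dchs1, -1.74 for Sav1 and -1.95 for Ptpn14. The split of the list was then 15 higher, 22 lower and 5 not called, with a median of -0.15. Of all 14353 genes, 6194 were higher and 5904 lower after that subtraction.

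Of the 10 listed partners of TEAD, the 6 genes Yap1, Wwtr1 and Tead1 to Tead4 are described above and Vgll1 and Vgll2 were not tested, with at most 1 read in any library. Vgll4, which competes with YAP for TEAD, was lowest in young MSCs at 329 ± 29.3 normalized counts, 580 ± 83.8 in rejuvenated old and 846 ± 62.4 in old MSCs (SD, n = 6). It fell by 0.56 in rejuvenated old against old (SE 0.08, adjusted p = 1.3e-05) and by 1.36 in young against old MSCs (SE 0.08, adjusted p = 4.0e-13), without overlap in either. Vgll3 was higher by 0.20 in rejuvenated old than in old MSCs (SE 0.04, adjusted p = 0.00018). Its young minus old difference of -0.04 was not called (adjusted p = 0.26), and it was 0.72 after subtraction of the chromosome 16 median and 0.03 with libraries scaled to the same total. Of the 8 tested, co-culture went with 3 higher and 1 lower, so that 4 of 8 were called beside 41.6% of all genes. In young against old MSCs 5 were higher and 2 lower, so that 7 of 8 were called beside 85.7% of all genes, and the split was 4 higher and 4 lower after subtraction of the chromosome medians.

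All 23 genes of the list of YAP and TAZ targets were tested, Ankrd1, Amotl2 and Lats2 among them. Between rejuvenated old and old MSCs 8 were higher, 8 lower and 7 not called, with a median log2 fold change of 0.02. The 16 called are 69.6% of the list, beside 41.6% of all genes (21.0% higher and 20.6% lower). After Amotl2, the rises were 0.50 for Nuak2, a kinase, 0.38 for Fjx1, 0.36 for Cyr61 and 0.29 for Ctgf. Cyr61, a matricellular protein, ran from 21478 to 24541 normalized counts in old and from 26813 to 34877 in rejuvenated old libraries, without overlap (SE 0.05, adjusted p = 5.2e-06). Ctgf, its relative, ran from 17881 to 20000.8 in old and from 21014 to 24260 in rejuvenated old libraries, also without overlap (SE 0.04, adjusted p = 1.4e-06). In GENCODE M21 Ctgf shares 665 exonic bases with an opposite-strand transcript, Gm15270. Dock5 fell by 0.81, Tgfb2 fell by 0.60, Ptpn14 fell by 0.33 and Gadd45a fell by 0.31. The 3 most used readouts therefore gave different results, with Cyr61 and Ctgf higher and Ankrd1 not called.

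Between young and old MSCs, 14 of the 23 targets were higher in young, 8 lower and 1 not called, with a median log2 fold change of 0.34. The 22 called are 95.7% of the list, beside 85.7% of all genes (41.6% higher and 44.1% lower). The same readouts diverged here too. Ctgf fell by 3.18 in young against old MSCs (SE 0.04, adjusted p = 2.3e-26), at 2049 ± 68.7 against 18637 ± 713 normalized counts (SD, n = 6), whereas Ankrd1 was higher in young by 3.75. Cyr61 was higher in young by 0.15 (SE 0.05, adjusted p = 0.0078). Nt5e was higher in young by 4.15, Gadd45a by 2.53, Nuak2 by 1.86 and Axl by 1.70. Tgfb2 fell by 2.18, Ptpn14 fell by 2.67 and Foxf2 fell by 2.14. After subtraction of the chromosome median these differences were 2.58 for Nuak2, 1.21 for Axl, -1.46 for Tgfb2, -1.95 for Ptpn14, -1.74 for Foxf2 and -2.88 for Ctgf. The split of the list was then 12 higher, 8 lower and 3 not called, with a median of 0.24. Of all 14353 genes, 6194 were higher and 5904 lower after that subtraction. Gadd45a and Dock5 thus fell with co-culture and were higher in young than in old MSCs.

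**Figure D4:**
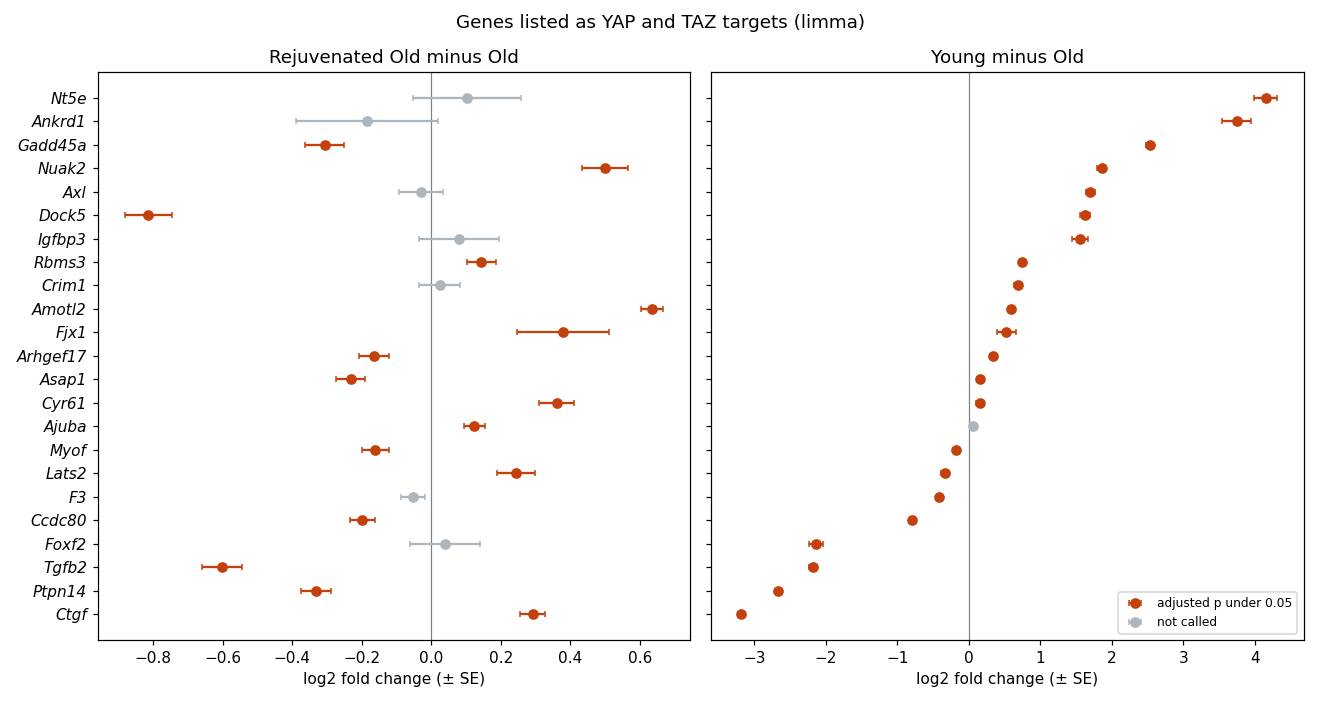
Log2 fold changes with SE of the 23 genes listed as YAP and TAZ targets, for rejuvenated old minus old (left) and young minus old (right), ordered by the right panel. Orange points passed an adjusted p under 0.05 and grey points did not. Ankrd1 and Ctgf lie near opposite ends on the right, at 3.75 and -3.18, and Amotl2 has the largest rise on the left, at 0.63.

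Genes with the most similar patterns were looked up for 3 of the members over the 18 libraries, among 13339 tested genes with a name, after each gene's log2 values were scaled to mean 0 and SD 1. The root-mean-square difference, which is 0 for the same pattern, was 0.14 between Yap1 and Papss2, 0.14 for Gnpda2 and 0.15 for Tm4sf1. The nearest to Wwtr1 were Ppp2r2d at 0.12, Purb at 0.12 and Acox2 at 0.13. The nearest to Ankrd1 were Axl at 0.095, which is also on the target list, Slc30a4 at 0.11 and Hmga1b at 0.11. The scaled patterns are set mainly by the gap between the young libraries and the other 12. In a culture of mixed cells, fewer cells of a type and less RNA per cell cannot be told apart for any of these genes.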

How the data were processed

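Each of 18 MSC cultures gave 1 RNA library, 6 libraries per group, and groups were taken from the sample titles. According to the methods and the labels, the authors aligned reads to mm10 with HISAT2 and quantified and normalized them with StringTie, featureCounts and DESeq2. Versions, annotation and strand setting are not given in the sources used here. The deposited values are a signal, the reads per gene divided by 1 size factor per library. Reads were recovered as whole multiples of a step per library, and 100% of values were whole within 0.01 read. Depth was 22936251 to 29559194 reads on genes. No 2 replicates agreed within sampling noise (chi-square per degree of freedom 2.60 to 23.7).

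Log2(value + 1) was fitted with limma 3.58.1 in R 4.3.3, as 3 group means with an abundance-dependent prior variance, for the 14353 genes whose mean reached 10. P-values were adjusted by Benjamini-Hochberg over all of these, and called means an adjusted p under 0.05. A fold change is 2 to the power of a difference on this scale and understates low genes. The fit was checked on artificial counts for rejuvenated old against old MSCs over 14353 genes, where 174 of 200 changed genes were recovered with 7 false calls. The artificial young libraries were set equal to the old ones, and a far smaller share of genes changed than was called in the data. All artificial changes were larger than the rises of Tead3, Lats2 and Tead4 with co-culture, so the check does not bear on changes of that size. Alternatives were other pseudocounts, filters, scalings, thresholds and spread estimates, a replicate block, DESeq2 1.42.0 and edgeR 4.0.16 on the recovered reads, and leaving out each library. Exon lengths came from GENCODE M21 and promoters from RefSeq GRCm38.p6, searched with Python 3.11.15. The comparison of TEAD and YAP proteins by sequence was not done here.

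The 10 genes and all lists were chosen with earlier results of these data known. From each pathway list up to 4 other genes with the largest rise and up to 4 with the largest fall among called genes were named per comparison with old MSCs, plus Cyr61 and Ctgf always, the 3 genes nearest in pattern to Yap1, Wwtr1 and Ankrd1, and 5 surface or lineage markers. Amotl1 was added as the remaining angiomotin of the kinase list.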

Additional observations from a re-analysis of the deposited data

Results flagged for a closer look

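Among the 36 groups of 6 libraries looked at (the 10 genes plus Cyr61 and Ctgf in each of the 3 groups), 2 held a library whose gap to its nearest neighbour exceeded Dixon's 95% limit relative to the group's range, and chance flags about 1 group in 20. Wwtr1 was 3165 normalized counts in young replicate 4, below the 3260.1 to 3293 of the other 5 young libraries, a gap of 0.74 of the range. Ctgf was 20000.8 normalized counts in old replicate 3, above the 17881 to 18567 of the other 5 old libraries, a gap of 0.68 of the range. Leaving out young replicate 4 changed no call of Wwtr1.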

How the results depend on the processing

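Of 930 recomputed fold changes of the 10 genes (13 settings and 18 fits without 1 library, for 3 comparisons), 910 kept their direction and side of the threshold, 4 lost and 5 gained a call, and 11 reversed. Subtraction of the chromosome median reversed Tead1 (-0.23) and Tead3 (-0.12) and Lats1 (0.18) in young against old MSCs, the same genes in young against rejuvenated old MSCs (-0.24, -0.20 and 0.13), and the uncalled Wwtr1 (0.0033) and Tead2 (-0.017) in rejuvenated old against old MSCs. Quantile normalization reversed the uncalled Yap1 in that comparison (-0.018) and Amotl2 in young against rejuvenated old MSCs (0.0054), as did the same total for Amotl2 (0.041). The cause was not tested.

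Of 396 recomputed counts, 382 stayed within 1.5 times, and the 14 others came only from stricter thresholds. At an adjusted p under 0.01, 2 of the 10 genes and 2 of the TEAD partners were called in rejuvenated old against old MSCs. With a 2-fold limit added (absolute log2 difference of 1 or more), the counts in rejuvenated old against old, young against old and young against rejuvenated old MSCs were 0, 2 and 2 of the 10 genes, 0, 11 and 9 of the kinase list, 0, 2 and 1 of the TEAD partners and 0, 11 and 11 of the targets. With each library left out, the 10 genes gave 4 to 5, 10 to 10 and 8 to 9 calls, the kinase list 21 to 25, 37 to 40 and 36 to 39, the partners 4 to 5, 7 to 7 and 7 to 7, and the targets 15 to 17, 22 to 23 and 19 to 20.

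Equal replicate numbers did not go together (correlation of deviations -0.15 to 0.07). With the replicate block, 4, 10 and 8 of the 10 genes were called, 23, 39 and 38 of the kinase list, 4, 7 and 7 of the partners and 16, 22 and 19 of the targets. Tead4, at 42 reads in its lowest library, is the gene most limited by depth.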
